A study of Mus musculus with 2 samples.

Results

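Broad SF1 ChIP regions below the top scores are described here: the stretches of the mouse autosomes that were at least 5 kb wide in the authors' SF1 list and yet scored under 50. They were chosen by 2 deposited values, width and score, and by chromosome (1 to 19). The rule kept 1033 of the 16249 regions in the list, which is 6.36% (95% interval 5.99 to 6.74%). They made up 6.57% of the 15726 autosomal regions under score 50. The other 14693 of those, all narrower than 5 kb, serve as the comparison regions throughout. All intervals for shares are exact Clopper-Pearson intervals at 95%. They treat regions as independent and cover counting error alone, and adjacent regions are not independent, so they are too narrow.

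SF1 (NR5A1) is a nuclear receptor with no agreed natural hormone that binds DNA as a monomer and turns on the genes of steroid synthesis in the adrenal cortex, the testis and the ovary. A factor that binds single short sites usually gives narrow ChIP-seq regions, about the length of the sheared DNA fragments around each site. A wide region can be a stretch over which enrichment did not drop below the caller's limit, though the calling used here is not given. Such stretches can arise where many sites lie close together, where a factor spreads over long open chromatin, or where background is raised. Width alone does not separate these.

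The chromatin came from whole uterus of C57BL6/6J mice aged 8 weeks, ovariectomized at 6 weeks and then rested for 2 weeks. Both libraries of the series came from such tissue: 1 precipitated with an antibody against SF1 and 1 input made without antibody. The labels name no transgene, no replicate and no number of animals, and whole uterus mixes epithelium, stroma and muscle, so the cells behind a region are not known. Coordinates are on mm9, as deposited, and the score is a whole number per region whose meaning the sources used here do not give. Sequencing depth is unknown. With 1 ChIP library, no difference below has a replicate check and no p-value is given. No mm9 genome or gene annotation was used here, so the genes, exons and sequences under these regions were not analysed here.

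The broad regions spanned 7.37 Mb, or 17.4% of the 42.4 Mb covered by the whole list. Their median width was 6309 bp, with quartiles of 5489 and 7878 bp and a maximum of 28804 bp. Most sat close to the lower limit of width: 431 were under 6 kb, 353 between 6 and 8 kb, 143 between 8 and 10 kb, 91 between 10 and 15 kb and 15 wider still. The 106 members of 10 kb or more were few, yet those from 10 to 15 kb alone held 14.5% of the members' length. Scores ran from 11 to 49 with a median of 24 and quartiles of 19 and 32, above the comparison regions, whose median was 16 with quartiles of 13 and 21. A score under 30 was given to 718 members, 69.5%, and to 92.0% of comparison regions. High scores were likewise more frequent among wide regions: 109 of the 1142 autosomal regions of 5 kb or more, 9.54%, scored 50 or above and so fell outside the rule, against 206 of the 14899 narrower ones, 1.38%. As width and score chose the members, these shares describe the list and are no test.

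**Figure D1:**
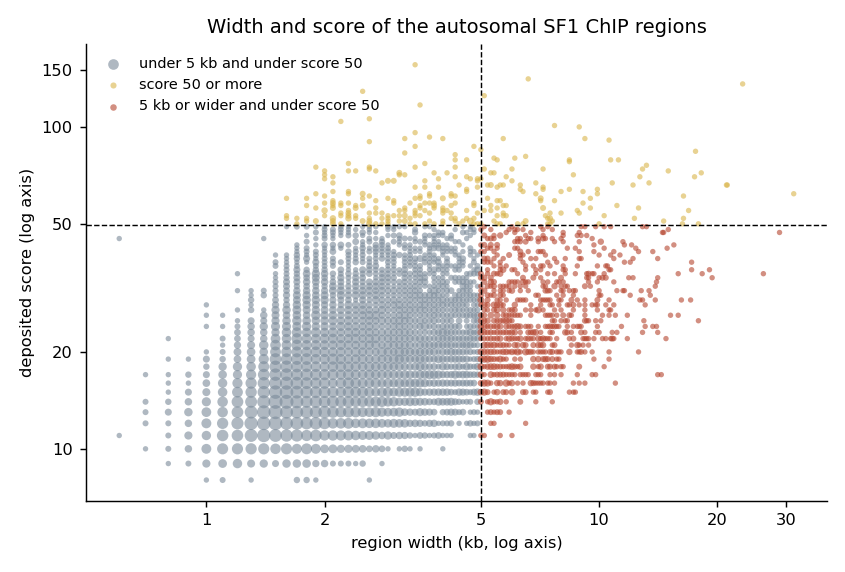
Deposited score (y axis, log) against width in kb (x axis, log) for the autosomal regions, with widths in steps of 100 bp and larger points where more regions coincide. Dashed lines mark 5 kb and score 50; the 1033 broad regions under score 50 (red) continue the cloud of narrower regions (grey) with no gap at 5 kb.

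Neither limit fell at a break in the data. The narrowest members were 5002 bp (chromosome 10, 68699282 to 68704284, score 17) and 5005 bp wide (chromosome 2, 10063950 to 10068955, score 26). The widest comparison regions, both 4996 bp, carried the same scores of 17 (chromosome 15, 78727239 to 78732235) and 26 (chromosome 11, 114648382 to 114653378). Within 200 bp above the limit there were 123 members, and within 200 bp below it there were 111 comparison regions. At the limit of score, 11 members scored 49 and 10 broad regions scored 50. The membership of any 1 region near a limit therefore rests on a few bp or 1 unit of score.

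The widest members stood well apart from the typical one. The first lay on chromosome 7 (108053182 to 108081986), spanned 28804 bp and scored 47. It was followed by a stretch of 26210 bp on chromosome 11 (78906101 to 78932311) that scored only 35 and had another region 156 bp beyond its end. These 2 exceeded all other members by more than 6 kb. The next were 19484 bp on chromosome 18 (60803121 to 60822605), 19107 bp on chromosome 11 (98632304 to 98651411) and 18301 bp on chromosome 5 (143655924 to 143674225), with scores of 34, 36 and 35. Of the remaining 5 among the 10 widest, the one on chromosome 3 (121338080 to 121355990, 17910 bp) had the lowest score of the 10, 25. Chromosome 11 held another (87964461 to 87981748, 17287 bp) with a score of 36, and chromosome 14 one (70593810 to 70611020, 17210 bp) with 38. Those on chromosome 7 (52955214 to 52972317, 17103 bp) and chromosome 4 (149362780 to 149379071, 16291 bp) both scored 29. None of the 10 widest was isolated: all had between 12 and 38 other regions centred within 500 kb, and 7 had one within 10 kb.

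The members with the highest score were a different set. All 11 regions at 49 were at most 13204 bp wide, so 0 of them were among the 10 widest. Chromosome 11 held 5 of them, at 115959654 to 115972580 (12926 bp), 94846858 to 94857650 (10792 bp), 117092697 to 117103033 (10336 bp), 120024522 to 120031932 (7410 bp) and 120208589 to 120215759 (7170 bp). The widest of the 11 was on chromosome 16 (30184054 to 30197258, 13204 bp). The other 5 lay on chromosomes 3 (96375009 to 96384815), 1 (155962266 to 155971557), 10 (59724312 to 59733340), 7 (134618366 to 134624427) and 15 (25515891 to 25520994), with widths from 9806 down to 5103 bp. At the other end, 4 members scored 11, on chromosomes 12, 17, 4 and 11, and were 5030 to 6080 bp wide. Across the 1033 members the Spearman correlation of width and score was 0.25, against 0.39 across the 14693 comparison regions; both are descriptions over regions of 1 library, and the rule cut both ranges.

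Score per kb of width sets a region's score against its length. As the meaning of the score is not known, it does not measure the shape of the signal. Width and score chose the members, so a low value follows from the rule and is no finding. The members' median was 3.54 units per kb (quartiles 2.79 and 4.68), and that of the comparison regions was 8.22 (6.22 and 10.53). The ranges still overlapped, since 96 members, 9.29%, lay above the lower quartile of the comparison regions. The member with the lowest score per kb was on chromosome 2 (30441510 to 30455935), 14425 bp wide with a score of 17, or 1.18 units per kb. A similar one lay on chromosome 8 (129346827 to 129360933, 14106 bp, score 17, 1.21 units per kb). Next came the broad stretches on chromosomes 11 and 3 named above, at 1.34 and 1.40, and a region of 11048 bp on chromosome 13 (56707921 to 56718969, score 16, 1.45). Within the members, the median score rose with width from 23 at 5 to 6 kb to 31 at 10 to 15 kb, but more slowly than width did, so score per kb fell from 4.14 to 2.68.

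The positions of neighbouring regions were not part of the rule, and here the broad regions differed from the narrow ones. Another SF1 region lay within 10 kb, measured between edges, of 749 of the 1033 members, which is 72.5% (69.7 to 75.2%). Over all 15726 autosomal regions under score 50 this share was 43.0%, and over the comparison regions alone it was 41.0% (40.2 to 41.8%). The difference was 31.5 percentage points. The median distance to the nearest region was 4255 bp for members (95% interval of the median 3829 to 4773 bp) and 15066 bp for comparison regions (14608 to 15614 bp). Members were also flanked on both sides more often: 25.9% (23.3 to 28.7%) had a region within 10 kb to the left and to the right, against 8.596% (8.15 to 9.06%). The left and right sides were alike, with 49.9% and 48.6% of members having a neighbour within 10 kb on that side.

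Near neighbours went with width and hardly with score. Within 5 classes of score the members' share exceeded that of the comparison regions each time, by 28.2 to 43.9 percentage points; the largest gap is in the class of 8 to 12, which held 7 members. The comparison regions stayed between 40.1% and 41.8% in every class, whatever their score. Broad autosomal regions of score 50 or more, which lie outside the rule, had a neighbour within 10 kb in 79 of 109 cases, 72.5% (63.1 to 80.6%), the same share as the members. The 4 most populated score classes of members ranged from 68.4% to 77.5% with overlapping intervals. Weighting the comparison regions to the members' scores gave a difference of 32.2 points.

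Width showed a graded relation instead of a step at 5 kb. Among autosomal regions under score 50, a neighbour within 10 kb was found for 25.3% (16.6 to 35.7%) of those under 1 kb. The share was 35.0% at 1.5 to 2 kb, 47.0% at 2.5 to 3 kb and 61.6% (58.2 to 65.0%) at 4 to 5 kb. Above the limit it was 70.5% (66.0 to 74.8%) at 5 to 6 kb, 68.3% at 6 to 7 kb and 70.2% at 7 to 8 kb. It was 81.1% (73.7 to 87.2%) at 8 to 10 kb and 80.2% (70.6 to 87.8%) at 10 to 15 kb. From 5 kb up, intervals of adjacent classes overlapped. Set against comparison regions of 4000 bp or more only, the members' excess was 10.9 points in place of 31.5.

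**Figure D2:**
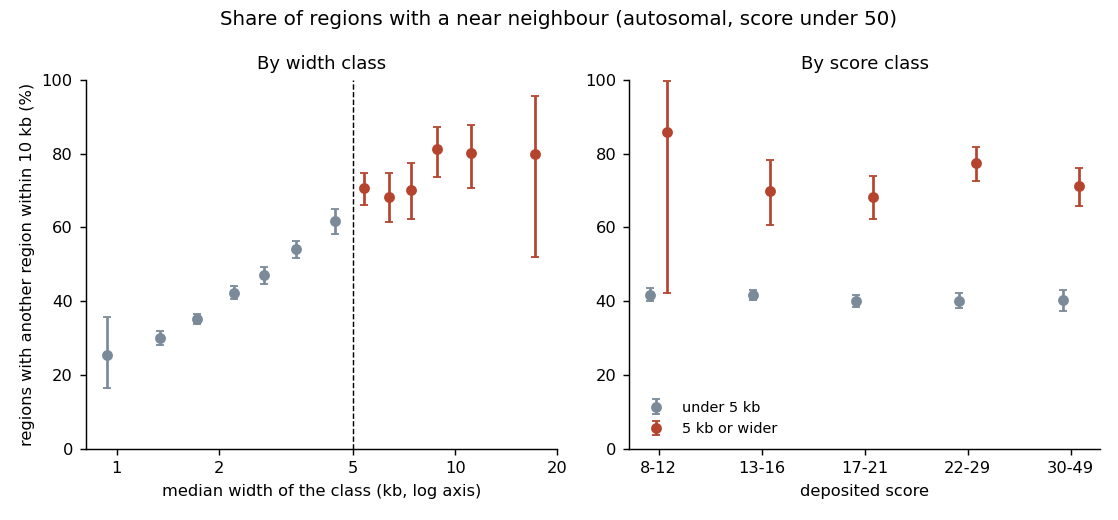
Share of autosomal regions under score 50 with another region within 10 kb, in percent, by width class (left, x axis log, each point at the class median width) and by score class (right); points are shares and bars exact 95% intervals. The share climbs with width, from 25.3% to about 80%, while at every score the broad regions (red) sit above the narrow ones (grey), whose share stays near 41%.

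How distance is measured matters for wide regions. Measured from centre to centre, which counts part of a region's own width as distance, a neighbour within 10 kb was found for 50.3% of members and 34.5% of comparison regions, a difference of 15.8 points. Very short gaps were common around the members: 281 of them, 27.2% (24.5 to 30.03%), had another region within 1 kb, against 12.2% (11.6 to 12.7%) of comparison regions. For 74 members, 7.16%, a gap was 100 bp or less, and the shortest was 1 bp. Such a gap is shorter than most sonicated fragments. Whether these gaps separate 2 sites or split 1 enriched stretch was not tested. With regions less than 1 kb apart joined first, 1376 regions met the rule, and their near-neighbour share was 61.0%, against 32.9% of the narrower ones.

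The surroundings of the members were rich in regions over much longer distances. The median number of other regions centred within 500 kb was 21 (20 to 22) around members and 13 (13 to 14) around comparison regions, and within 100 kb it was 6 and 3. Of the members, 0 of 1033 were alone within 500 kb (exact upper limit 0.356%), whereas 182 comparison regions, 1.24%, were. Other regions covered 10.2% of the sequence in the first kb beyond a member's edge, 20.97% at 3 to 4 kb and 20.5% at 7.5 to 10 kb. Coverage then declined to 11.4% at 40 to 50 kb, 7.82% at 100 to 150 kb and 4.62% at 400 to 500 kb. The comparison regions reached 8.13% at 3 to 4 kb and 3.55% at 400 to 500 kb, and regions of the list covered 1.76% of the autosomal span as a whole. The neighbourhood was thus densest at 3 to 10 kb, and at 400 to 500 kb coverage around members was still above the span-wide value.

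**Figure D3:**
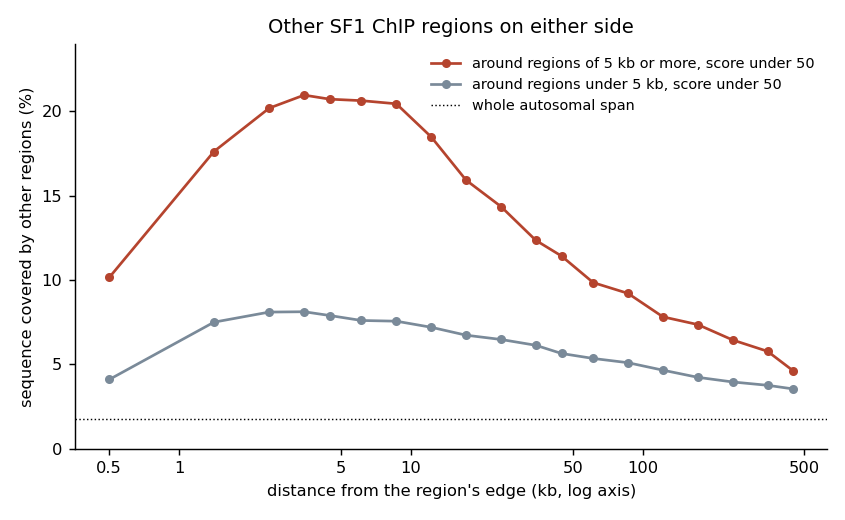
Percentage of sequence covered by other SF1 ChIP regions (y axis) against distance from a region's edge in kb (x axis, log), both sides together, around broad regions under score 50 (red) and narrower ones (grey); the dotted line is coverage over the whole autosomal span, 1.76%. The red curve peaks at 20.97% at 3 to 4 kb and lies above the grey curve in every bin up to 500 kb.

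The difference in near neighbours was also seen at like local density. Regions were put into 7 classes by the number of others within 500 kb. The members' share with a neighbour within 10 kb was the higher one in 6 of 7 classes, by up to 31.9 points. The exception was the sparsest class, with 0 to 2 other regions, where 0 of 4 members (upper limit 60.2%) and 68 of 845 comparison regions had one. With 6 to 10 others the shares were 63.0% (52.8 to 72.4%) and 31.1% (29.5 to 32.7%), and with 31 or more they were 83.4% (77.4 to 88.4%) and 66.6% (63.7 to 69.4%). Weighted to the members' local density, the difference was 21.2 points. The classes count the near neighbours themselves; with density counted from 100 to 500 kb away only, it was 26.5 points.

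Broad regions also lay near each other. Another member was found within 100 kb of 564 members, 54.6% (51.5 to 57.7%). Over all autosomal regions under score 50 the share with a member that near was 26.3%, and over the comparison regions it was 24.3% (23.6 to 25.03%). These shares were not weighted to local density or chromosome, although members lay in denser surroundings. The median distance to the nearest other member was 81.5 kb for members and 506 kb for comparison regions. This nearness was not particular to scores under 50, since 58 of the 109 broad regions of score 50 or more, 53.2% (43.4 to 62.8%), also had a member within 100 kb, at a median of 68.3 kb. Regions of score 50 or more were nearer as well, again without weighting to local density. One lay within 100 kb of 18.1% (15.8 to 20.6%) of members and of 8.96% (8.51 to 9.44%) of comparison regions. Most close neighbours of a broad region were narrow, as were most regions of the list. Of the 958 distinct regions directly next to a member and within 10 kb of it, 723 (75.5%) were comparison regions. A further 207 (21.6%) were members and 28 scored 50 or more. In the whole list of 16249 regions, 14693 were comparison regions and 6.36% were members. The list also holds isolated regions, which cannot be such neighbours, so it is not a like benchmark. Of the 6769 autosomal regions under score 50 with any region within 10 kb, 749 were members.

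Gaps shortened as the regions on either side got broader. Members that directly followed each other along a chromosome formed 160 pairs, with a median gap of 5081 bp, and 70.0% (62.3 to 77.0%) of these gaps were 10 kb or less. A member next to a comparison region gave 1687 pairs with a median gap of 12402 bp, of which 45.2% (42.8 to 47.6%) were 10 kb or less. For 2 adjacent comparison regions the median gap was 38272 bp and 23.4% were 10 kb or less. Scores and widths of close members were hardly correlated, within ranges that the rule had cut and with no interval computed. In the 112 member pairs within 10 kb, the Spearman correlation of the 2 scores was 0.08 and that of the 2 widths 0.01, and the median difference in score was 9.

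Regions less than 10 kb apart were counted as groups, and members made up a larger share of the regions in larger groups. Of the 1033 members, 194 were in a group of 5 or more regions, 18.8% (16.4 to 21.3%), against 6.01% of all autosomal regions under score 50 and 5.11% (4.76 to 5.48%) of the comparison regions. Members were 3.17% of the regions under score 50 that stood alone, 7.42% of those in groups of 2, 12.7% in groups of 3 or 4, 19.8% in groups of 5 to 7 and 24.2% in larger groups. Of the 16 groups with 8 or more regions, 14 held at least 1 member, but a group of more regions has more places for one. In groups of 3 or more, 54.7% (50.2 to 59.2%) of members lay inside the group with neighbours on both sides, against 45.3% (43.4 to 47.2%) of comparison regions. Larger groups have more inside places and hold more of the members. At equal group size the intervals overlapped: in groups of 3 the shares were 35.4% (28.4 to 42.8%) and 33.04% (30.6 to 35.6%), and in groups of 5 to 7 they were 68.8% (60.9 to 75.9%) and 62.05% (58.1 to 65.8%). A different place within groups was therefore not told apart from group size.

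Some of the broad regions formed runs. Members less than 100 kb apart formed 83 chains of 3 or more, which held 334 members (32.3%) on 18 of the 19 autosomes. Of these chains, 13 were on chromosome 11, which held 12.7% of all members. A further 230 members formed pairs, and 469 had no other member within 100 kb. No chains were built from comparison regions, so these counts have no benchmark. The longest chains had 11 members each. On chromosome 17 (84285168 to 84590217) the members ran over 305049 bp and covered 29.95% of it. Their scores were 16, 31, 22, 16, 22, 23, 29, 12, 17, 16 and 45 in order of position, and 11 narrower regions lay between them. On chromosome 12 (80870906 to 81092845) the chain was tighter, with 39.9% of its 221939 bp covered by its members. Scores there ran 20, 17, 16, 20, 45, 16, 24, 41, 25, 16 and 34, with 10 narrower regions in between. In neither chain did scores run steadily up or down.

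**Figure D4:**
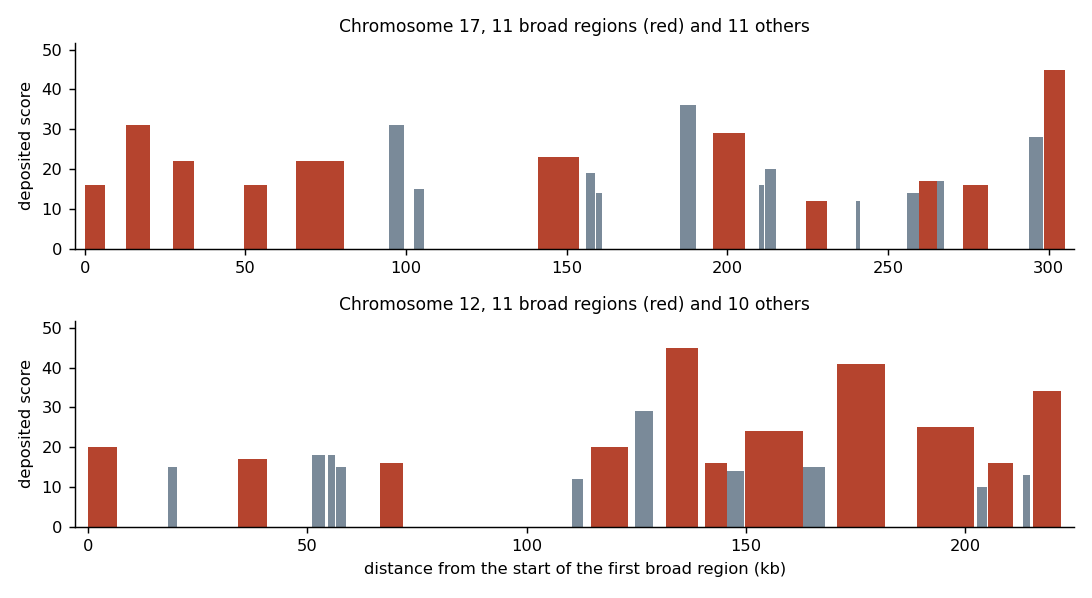
The 2 chains of 11 broad regions, on chromosome 17 (top) and chromosome 12 (bottom), by distance from the start of the first broad region in kb (x axis, to scale); each bar is 1 region, its width the region's width and its height the deposited score. Broad regions (red) score 12 to 45 and are interleaved with narrower ones (grey).

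The chain on chromosome 12 was also the most crowded setting of any member. The 5 members with the most other regions within 500 kb all belonged to it, at 81086416 to 81092845, 81059953 to 81073011 and 81076030 to 81081888 with 52 others each, and at 81041739 to 81052691 and 80905124 to 80911646 with 51 each. Their scores ran from 16 to 41. Other long chains lay on chromosome 11 (98600451 to 99012050, 10 members), chromosome 14 (26170608 to 26381114, 10 members) and chromosome 10 (79264226 to 79786390, 9 members). In fixed windows of 1 Mb, the fullest was 26 to 27 Mb of chromosome 14 with 16 members among 45 regions, followed by 84 to 85 Mb of chromosome 17 with 12 among 37. Members were present in 473 of the 1814 autosomal windows with any region, and 134 windows with 3 or more held 57.7% of them. No like share was computed for comparison regions. Over the 1814 windows, the Spearman correlation of the numbers of members and comparison regions was 0.57. Of the 198 windows with 20 or more regions, 17 had 0 members. How many would have none from the members' share of the list was not computed, so this is a description only.

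A small number of broad regions stood apart. The nearest region was more than 100 kb away for 18 members, 1.74% (1.04 to 2.74%), against 11.6% (11.1 to 12.2%) of comparison regions. The most isolated member, on chromosome 1 (55788544 to 55794888, 6344 bp, score 31), was 324230 bp from its nearest neighbour. One on chromosome 7 (3288649 to 3293689, score 19) was the first listed region of its chromosome and lay 301236 bp before the next. The others were on chromosome 13 (63663750 to 63670519, score 28, 235903 bp), chromosome 7 (76120932 to 76126173, score 16, 225721 bp) and chromosome 9 (117157555 to 117163154, score 17, 207497 bp). All 5 were between 5040 and 6769 bp wide, on either side of the members' median of 6309 bp. Whether repeats underlie these regions was not tested.

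Broad regions were spread unevenly over the autosomes. Chromosome 11, which is rich in genes, held 131 members, 12.7% of all, or 1.10 per Mb of span. The other autosomes together had 0.397 per Mb, a ratio of 2.78. Comparison regions were also dense on chromosome 11, at 10.05 per Mb against 6.15 over all autosomes. As a proportion of regions under score 50, members were 9.90% on chromosome 11 and 6.26% on the other autosomes, a ratio of 1.58. The lowest were chromosome 3 with 29 members (0.191 per Mb) and chromosome 13 with 24 (0.206 per Mb). Members per Mb varied 5.79-fold between the highest and the lowest autosome, while comparison regions per Mb varied 2.28-fold.

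The proportion of broad regions among all regions under score 50 also differed between autosomes. Members made up 9.90% (8.34 to 11.6%) on chromosome 11 and 9.79% (7.91 to 11.96%) on chromosome 8. The proportion was 3.91% (2.52 to 5.76%) on chromosome 13, 4.11% (2.53 to 6.27%) on chromosome 18 and 4.15% (2.80 to 5.90%) on chromosome 3. The intervals of chromosomes 11 and 8 did not overlap those of the 3 lowest, whereas neighbours in this order could not be separated. Chromosome 8 differed from chromosome 11 in its density of comparison regions, 6.19 per Mb against 10.05. Across the 19 autosomes the Spearman correlation of the proportion with comparison regions per Mb was 0.66, a description of 19 points from 1 library. Median width and score of members ranged over the autosomes from 5472 to 7118 bp and from 22 to 28. The X chromosome, outside the rule, had 2 regions of 5 kb or more among its 206 under score 50, 0.971% (0.118 to 3.46%).

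**Figure D5:**
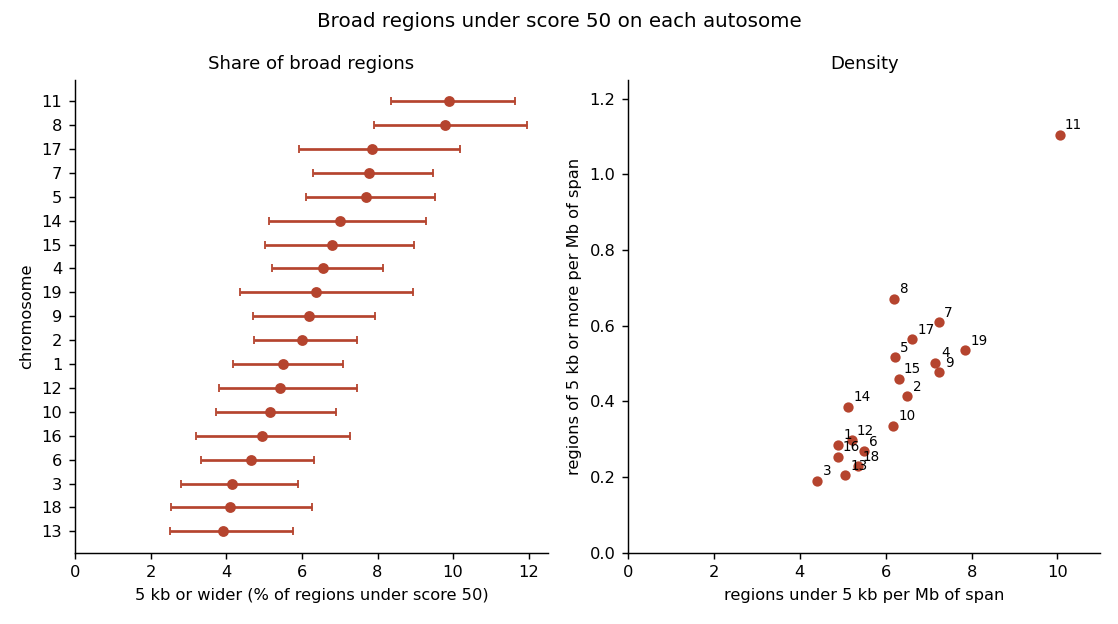
Left, members as a percentage of the regions under score 50 on each autosome, with exact 95% intervals; right, members per Mb (y axis) against comparison regions per Mb (x axis), each point 1 autosome labelled with its number. Chromosomes 11 and 8 have the highest proportions, 9.90% and 9.79%, and chromosome 11 stands alone in density at 1.10 members per Mb.

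The link between width and near neighbours was seen on every autosome. The members' share with a region within 10 kb exceeded that of the comparison regions of the same chromosome on 19 of 19 autosomes, by 20.3 to 50.7 percentage points. On chromosome 11 the shares were 72.5% and 46.5%, and without that chromosome the pooled difference was 32.0 points. The largest gap was on chromosome 18, with 17 of 20 members (62.1 to 96.8%) against 34.3% of its comparison regions. The smallest was on chromosome 17, with 63.5% (48.96 to 76.4%) against 43.1%. The intervals of these members' shares overlapped. On chromosome 3 the members' interval, 38.9 to 76.5%, overlapped that of its comparison regions, 33.8 to 41.3%. Along the chromosomes, 46.4% (43.3 to 49.47%) of members and 42.1% (41.3 to 42.9%) of comparison regions lay in the last of 3 equal parts of the span. In the first part, nearest the centromere in the acrocentric mouse chromosomes, these shares were 22.8% (20.3 to 25.5%) and 26.2% (25.5 to 26.9%).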

How the data were processed

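A single list of regions from the SF1 ChIP library was used. Per the submitters' processing notes, the authors aligned reads with BWA to mm9. How regions were called, at which threshold and with what use of the input is not given in the sources used here, nor is the version of BWA. The file the authors deposited has 5 columns without a header: 3 for position, 1 for a serial name and 1 for a whole number, read as each region's score. Depth is unknown, and the input library was not analysed here. Whether starts count from 0 or 1 is not stated. All values were compared within this 1 list.

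Width is end minus start. Neighbours were sought among all 16249 regions, X and scores of 50 or more included. Chromosome span runs from the first region's start to the last one's end. Intervals of medians are exact order-statistic intervals. The regions named are the 10 widest, those with the highest score (11 tied), the 5 with the lowest score per kb, the 5 with the most regions within 500 kb, the 5 farthest from any region, those at the limits, and the longest chains. The members, lists and measures were chosen with earlier results of these data known. Annotation and sequence features, planned for an mm9 reference, were not run. Alternatives covered the limits of width and score, a stricter score, merging, neighbour distances, windows and stratified comparisons. The code was tested on simulated regions. Computation used Python 3.11.15, numpy 2.4.6, pandas 2.3.3, scipy 1.17.1 and matplotlib 3.10.9.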

Additional observations from a re-analysis of the deposited data

How the results depend on the processing

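Of the 62 alternatives, 39 concerned differences or ratios whose direction the rule did not fix, and 0 of these reversed. Over all 62, 27 values stayed within the 95% interval of the reported one or, for the number of members, within 1.5 times of it. Width minimums of 4000, 6000 and 10000 bp gave 1849, 602 and 106 members. At 4000 bp the near-neighbour share was 67.7%, its excess over narrower regions 28.0 points, the share with another member within 100 kb 65.3% and the chromosome 11 ratio of proportions 1.33. At 10000 bp these were 80.2%, 37.4 points, 16.04% (excess 11.6 points, with fewer members to find) and 2.38; the chromosome 11 ratio per Mb was 4.18 and the difference in regions within 500 kb 10.5. Keeping only scores of 17 or more, which removes neighbours by construction, gave 51.6%, 26.7 points, a difference of 4 regions and 50.8%. Merging across gaps under 1 kb gave 61.0% and 28.0 points. Neighbour distances of 5 and 25 kb gave 54.3% and 87.9%, with 26.3 and 26.2 points, and centre distances 50.3% and 15.8 points. The excess was 21.2 points within local density classes. A pair of comparisons chosen after seeing the data gave 10.9 points (comparison regions of 4000 bp or more) and 26.5 points (density from 100 to 500 kb away). Windows of 100 kb and 1 Mb gave differences of 3 and 12 regions, and member distances of 50 and 250 kb shares of 44.05% and 70.1%. With empty stretches over 1 Mb taken out, the chromosome 11 ratio per Mb was 2.13. Against comparison regions of the same score, the members' score per kb was 0.337 times as high in place of 0.431. The cause of these shifts was not tested beyond what is said. No paired analysis was possible because there is 1 ChIP library, and no replicate could be left out.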
